A study of Mus musculus with 2 samples.

Results

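Hnf4a and Hnf4g are the pair of mouse genes for HNF4 factors, and all open-chromatin peaks called at them in Wnt4-lineage kidney cells are described here. A peak was taken as belonging to a gene when its summit lay inside the gene, or lay within 100 kb and closer to an end of that gene than to an end of any other of 21887 protein-coding genes (RefSeq on mm10). This gave 5 of 61210 peaks in Brg1 cKO cells, 4 at Hnf4a and 1 at Hnf4g, and 8 of 77529 peaks in control cells, 7 at Hnf4a and 1 at Hnf4g. The peaks come from 2 ATAC-seq libraries, 1 per genotype, of tdTomato cells sorted from kidneys at E18.5, with 50000 cells per reaction. The cKO library carries the genotype Brg1cKO/cKO, a conditional deletion of Brg1, the motor subunit of BAF remodelling complexes, and the other is labelled WT control. The labels name neither the Cre allele nor the number of embryos, and the control's cell type entry reads only control, so that both libraries hold sorted lineage cells rests on the shared protocol and the design text. With 1 library per genotype there is no replicate spread, no test between genotypes was made, and all 95% intervals (exact Clopper-Pearson) cover counting error only.

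HNF4 factors are nuclear receptors that sit on DNA as dimers, at sites built from a direct repeat with a short spacer. HNF4A, known first from liver, is made in the kidney by proximal tubule cells, the nephron cells that reabsorb most of the filtrate, and in the mouse it is needed for these cells to mature. HNF4G is its paralogue, best known from the gut. The Hnf4a gene has a pair of alternative promoters: P2, at the upstream end of the gene, is used in the pancreas and gut, and P1, far inside the longest transcript, is used in liver and kidney.

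The RefSeq promoter table (GRCm38.p6, the assembly of mm10) held windows for 1 of the members, Hnf4a, each running from 250 bases before an annotated start to 50 after it. Both are shown because neither lay under a peak in either library. Capitals mark the 50 bases from the start on, and both windows are on the plus strand, with P2 at chr2:163506607-163506906 and P1 at chr2:163546905-163547204.
Hnf4a P2: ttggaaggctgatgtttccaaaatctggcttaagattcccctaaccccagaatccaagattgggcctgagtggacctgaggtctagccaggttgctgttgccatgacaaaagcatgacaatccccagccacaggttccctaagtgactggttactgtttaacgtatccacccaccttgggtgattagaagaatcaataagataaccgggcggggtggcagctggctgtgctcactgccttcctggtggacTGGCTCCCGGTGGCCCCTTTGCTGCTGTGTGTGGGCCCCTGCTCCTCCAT
Hnf4a P1: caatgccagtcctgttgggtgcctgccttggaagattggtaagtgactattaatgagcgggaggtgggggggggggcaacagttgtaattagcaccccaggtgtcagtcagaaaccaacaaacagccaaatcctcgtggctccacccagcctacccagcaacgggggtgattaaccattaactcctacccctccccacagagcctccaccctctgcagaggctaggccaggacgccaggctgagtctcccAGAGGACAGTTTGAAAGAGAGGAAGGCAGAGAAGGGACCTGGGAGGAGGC

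Hnf4a (gene ID 15378, chromosome 2, 163506811 to 163572907) had fewer peaks in cKO than in control cells. Each of the 4 peaks called in cKO cells had a control peak over it (100%, 39.8 to 100%), where 5.92% of all cKO peaks had no control counterpart. Of the 7 called in control cells, 4 were also called in cKO cells (57.1%, 18.4 to 90.1%) and 3 had no partner, where 25.9% of all control peaks had no cKO counterpart. Among the 621 protein-coding genes with 7 control peaks, 180 (29.0%) kept 4 or fewer, so the count at Hnf4a is a common one, and its interval includes the share over all peaks. In sorted bulk cells, fewer cells of a type and less open chromatin per cell cannot be told apart.

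The peaks that both libraries share lie on either side of P1. Between P2 and P1, in a stretch of the gene that the antisense noncoding gene Hnf4aos also spans, the first pair had its summit 15.04 kb before P1 in each library, with a width of 748 bp in cKO cells (chromosome 2, 163531973 to 163532720) and 550 bp in control cells (163531999 to 163532548). The second pair, 11.99 kb before P1, was the strongest of Hnf4a in each list, with widths of 836 bp in cKO cells (163534846 to 163535681) and 961 bp in control cells (163534848 to 163535808). Its summit fell on the same base, 163535169, in both libraries, and that of the first pair was displaced by 1 bp. Downstream of P1, the peak 13.3 kb away measured 570 bp in cKO cells (163560106 to 163560675) and 436 bp in control cells (163560240 to 163560675), ending on the same base, and its summits lay 74 bp apart. The last pair lay 28.3 kb after P1, beyond the gene, with summits 2.56 and 2.57 kb past its downstream end in cKO and control cells, and widths of 554 bp in cKO cells (163575273 to 163575826) and 647 bp in control cells (163575215 to 163575861).

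The 3 control peaks with no cKO counterpart all lay downstream of P1 and inside the gene. The nearest to P1 had its summit 2.92 kb after it and was 728 bp wide (163549672 to 163550399). The others lay 8.49 kb after P1, with 687 bp (163555118 to 163555804), and 17.7 kb after P1, with 335 bp (163564603 to 163564937). Of the 4 control peaks between P1 and the end of the gene, 1 was therefore called in the cKO library, the one at 13.3 kb, while both upstream of P1 were. The control peak closest to P1 had its nearer edge 2.52 kb from the start. In the cKO library the closest peak to P1 was the one before it, 11.5 kb away at its nearer edge, and the next after P1 was the one at 13.3 kb.

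**Figure D1:**
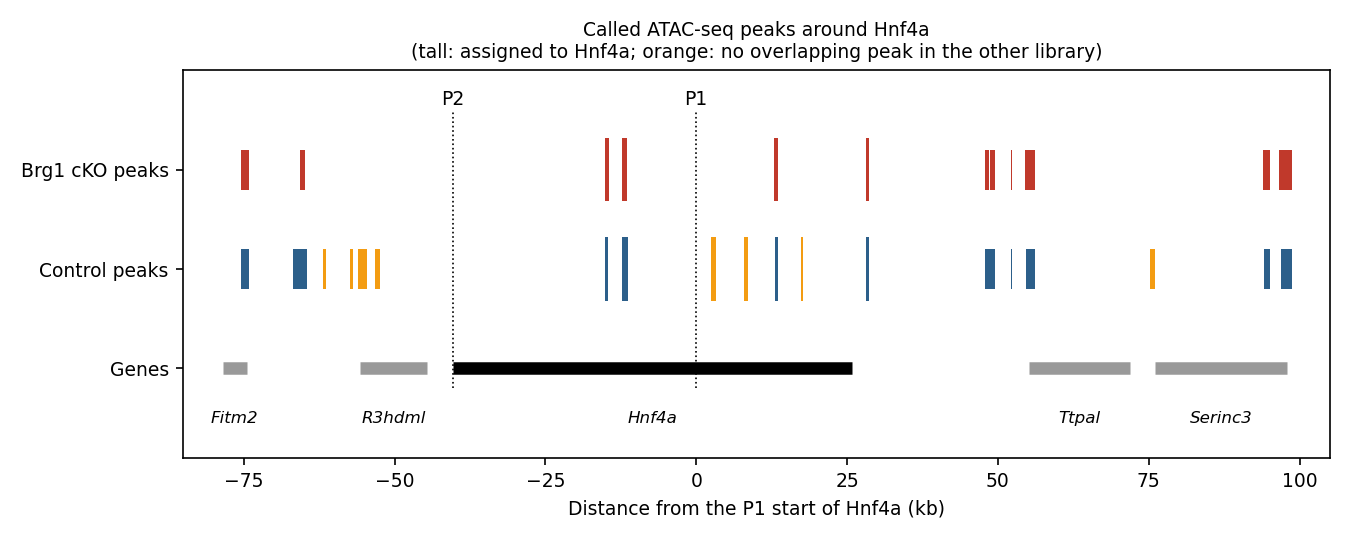
Called peaks around Hnf4a, drawn to scale along the distance from the P1 start in kb, with cKO peaks above control peaks and genes below; orange boxes overlap no peak of the other library, the others do, and tall boxes are the peaks of Hnf4a. The 3 orange tall boxes lie after P1 in the control row, 4 orange control boxes of R3hdml lie before P2, and no cKO box is orange.

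Peak strength was read as the percentile of the peak caller's p within a list, which ranks peaks of 1 library and measures no change between libraries. The 4 matched control peaks of Hnf4a, in order along the gene, stood at percentiles 63.6, 83.6, 36.3 and 26.1 of the control list. The 3 unmatched ones stood at 52.3, 8.54 and 27.9, so that they were weak to middling and overlapped the matched peaks in rank. In the cKO list the matched peaks stood at 65.2, 79.3, 30.5 and 9.64, the same order of strength among the 4 as in the control list. With each list divided into 10 classes of strength, control peaks in the classes of the 3 unmatched peaks were found in 85.5% of cases for the peak 2.92 kb after P1, 35.6% for the one at 8.49 kb and 50.2% for the one at 17.7 kb. Averaged over all 7 peaks, the share found in their classes was 68.0%, against the 57.1% found at Hnf4a, a difference far within the interval of so few peaks. The peak nearest to P1 is thus the one whose absence from the cKO list was least usual for its strength.

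**Figure D2:**
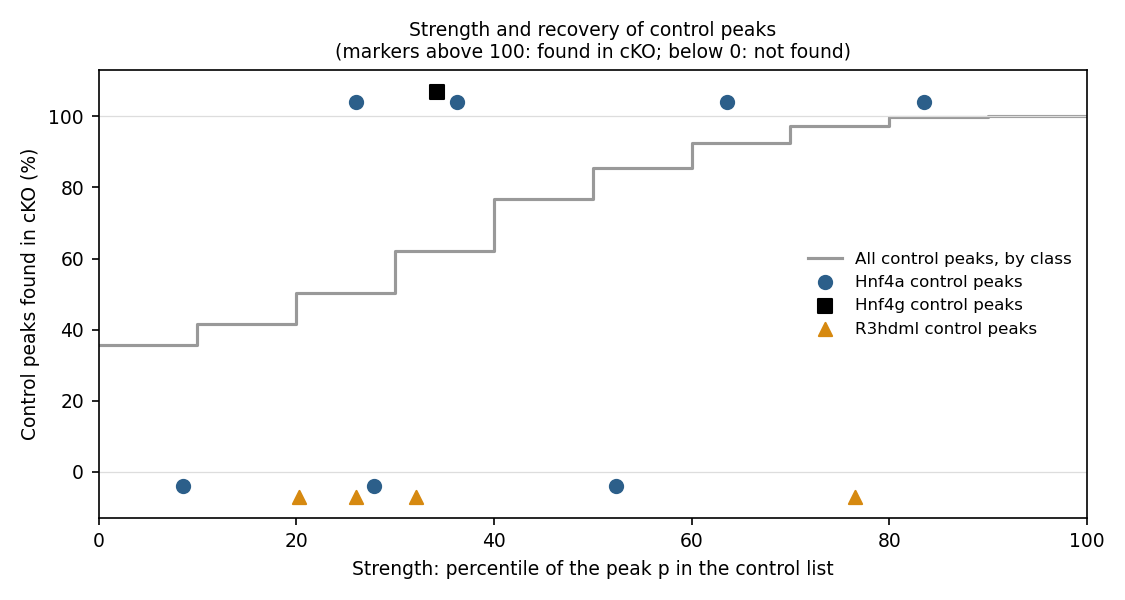
Share of control peaks found in the cKO list in 10 classes of strength (step line, per cent) against the percentile of the peak's p in the control list, with the single control peaks of Hnf4a, Hnf4g and the neighbour R3hdml as markers above 100 where found and below 0 where not. The Hnf4a peaks not found lie at percentiles 8.54, 27.9 and 52.3, and the R3hdml peak farthest to the right is at 76.6.

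Peaks of Hnf4a covered 2708 bp in cKO cells and 4344 bp in control cells, a ratio of 0.623, with mean widths of 677 and 621 bp. The whole lists covered 71.4 Mb in cKO and 84.6 Mb in control cells, a ratio of 0.844. Among genes with 7 control peaks the median ratio was 0.832, with the middle 50% between 0.711 and 0.95, so Hnf4a lies below that range. The difference in covered bases came from the peaks without a counterpart, which held 1750 bp in control cells. The 4 matched regions covered 2708 bp in cKO and 2594 bp in control cells, a ratio of 1.04. The libraries shared 2374 bp at the gene, 87.7% of its cKO bases and 54.7% of its control bases.

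Within the matched pairs the widths moved both ways. The cKO peak was wider by a factor of 1.36 at 15.04 kb before P1 and of 1.31 at 13.3 kb after it, and narrower, with ratios of 0.870 and 0.856, at 11.99 kb before P1 and 28.3 kb after it. Over all 54820 pairs of peaks that overlap one another and no other peak, the median ratio was 0.982, the middle 50% ran from 0.863 to 1.06, and 41.2% of pairs were wider in cKO cells. The 2 wider Hnf4a pairs lie above that middle range and the narrowest just under it. Summits of such pairs differed by a median of 9 bp, and 16.8% of pairs by over 70 bp, as at the Hnf4a pair 13.3 kb after P1.

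**Figure D3:**
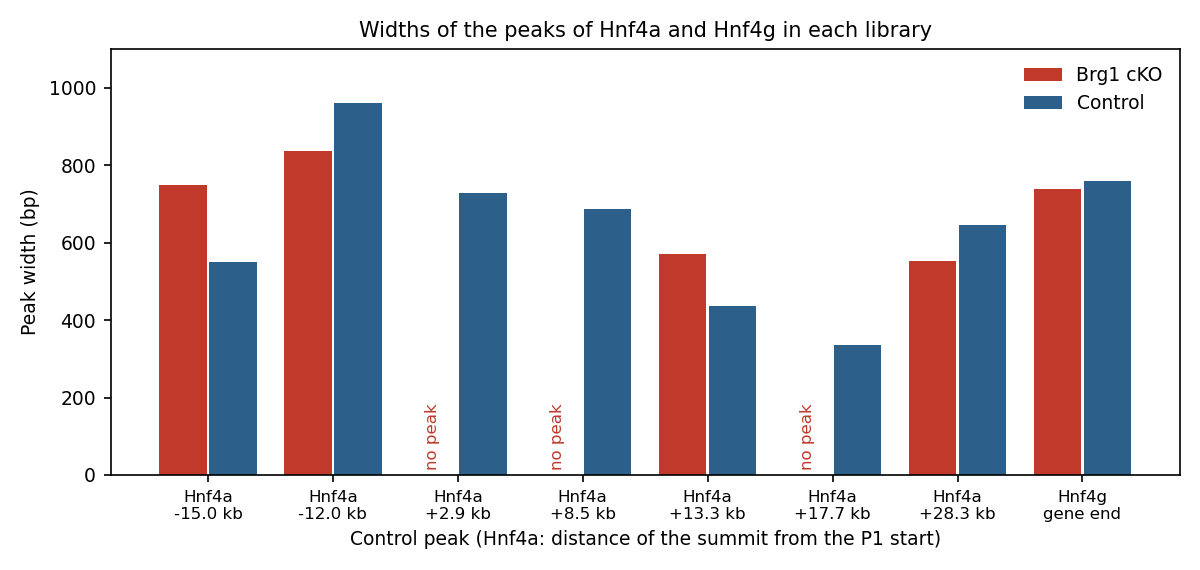
Width in bp of each control peak of Hnf4a and Hnf4g (right bar) and of the overlapping cKO peak (left bar), each 1 value from 1 library, with Hnf4a peaks named by the distance of the summit from P1. The cKO bars run from 554 to 836 bp at Hnf4a and are missing at 3 control peaks, and the bars of Hnf4g are 739 bp in cKO and 759 bp in control cells.

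Hnf4g (gene ID 30942, chromosome 3, 3508030 to 3659800) had 1 peak in each library, and these overlapped. It lies across the gene end with the lower coordinate, with its summit 218 bp inside the gene in cKO and 215 bp inside in control cells. The cKO peak was 739 bp wide (3507688 to 3508426) and lay wholly within the control peak of 759 bp (3507669 to 3508427), a ratio of 0.974, with summits 3 bp apart. It stood at percentile 23.3 of the cKO list and 34.3 of the control list, and 62.2% of control peaks in its class were found. Of the 4714 protein-coding genes with 1 control peak, 91.1% kept it. The remaining length of Hnf4g held no called peak in either library, and the next peak on the side of its other end lay 1551 kb beyond that end in both cKO and control cells, with none between the gene and the near end of the chromosome. Protein-coding genes of 100 to 200 kb, the size range of Hnf4g, had a median of 5 cKO peaks and 7 control peaks, and 11.1% of these 1439 genes had at most 1 control peak. In contrast to Hnf4g, Hnf4a had no peak within 1000 bp of an annotated gene end in either library, where 66.2% of protein-coding genes had one in cKO and 67.6% in control cells.

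The region around Hnf4a was examined next, since peaks nearer to other genes may also lie in its surroundings. Within 100 kb of the gene there were 16 cKO peaks, all found in the control library, and 23 control peaks, of which 15 were found (65.2%, 42.7 to 83.6%). Of the 8 control peaks not found, 3 are those of Hnf4a and 4 belong to R3hdml, the next protein-coding gene upstream, 4.19 kb from Hnf4a. R3hdml had no cKO peak, and none of its 4 control peaks was found (0%, 0 to 60.2%). These 4 peaks follow one another without a matched peak between them, from 21.3 to 12.2 kb before the start of Hnf4a, over a span of 9.43 kb (163485309 to 163494737). They stood at percentiles 26.1, 32.1, 76.6 and 20.3 of the control list. The third, 1465 bp wide (163491122 to 163492586) with its summit 0.132 kb inside R3hdml, was in a class of which 97.2% was found. Unbroken runs of 4 or more unmatched control peaks were found 481 times in all and held 2.87% of control peaks, or 11.1% of those without a cKO counterpart. The remaining neighbours kept most of their peaks. Fitm2, for a protein of lipid droplet formation, had 2 cKO and 2 control peaks, all matched. Its ratio of bases covered was still 0.608, about as low as that of Hnf4a. Ttpal, for a lipid transfer protein, had 4 cKO and 3 control peaks, all matched, with a ratio of 0.979. Serinc3, for a membrane protein, had 2 cKO peaks, both matched, and kept 2 of 3 control peaks, with a ratio of 0.862. Hnf4g has no protein-coding neighbour before it, and those after it, Zfhx4, for a zinc finger homeodomain factor, and Pex2, for a peroxisome assembly protein, lie 1558 and 1900 kb away and kept all of their 5 and 1 control peaks.

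The factors that once carried the HNF name alongside HNF4 are the forkhead proteins FOXA1, FOXA2 and FOXA3 and the cut homeodomain protein ONECUT1. All 6 promoter windows listed for Foxa1, Foxa2, Foxa3 and Onecut1 lay under peaks in both libraries, unlike both windows of Hnf4a. Among 21263 windows of protein-coding genes, 63.98% lay under a cKO peak, 65.2% under a control peak and 34.5% under neither, so that the state of the Hnf4a windows is not rare. Over all control peaks 74.1% were found. Foxa2 had 4 cKO peaks, as many as Hnf4a and all matched. It kept 4 of 9 control peaks (44.4%, 13.7 to 78.8%, with 73.6% from their strength classes). Foxa1 had 8 cKO peaks, all matched, and kept 8 of 9 control peaks (88.9%, with 68.1% from their classes). Onecut1 had 9 cKO peaks, all matched, and kept 8 of 11 control peaks (72.7%, with 70.8%). Foxa3 had 1 matched peak in each library, in a control class of which 97.2% was found.

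Genes for 10 partners and coregulators of HNF4 held 73 cKO peaks, of which 70 were found in the control library (95.9%, 88.5 to 99.1%), and 88 control peaks, of which 69 were found in the cKO library (78.4%, 68.4 to 86.5%, with 76.2% from their strength classes). Rxra, for the partner of many nuclear receptors, had 20 cKO peaks, 19 of them matched, and kept 19 of 23 control peaks. Ppargc1a, for a coactivator of mitochondrial and gluconeogenic genes, had 6 cKO peaks, all matched, and kept 6 of 11 control peaks. Ncoa2, for a coactivator that binds nuclear receptors, had 8 cKO peaks, 7 of them matched, and kept 7 of 14. Nr0b2, for the corepressor SHP, chosen after its values were seen, had no cKO peak and 1 control peak, at a gene end. That peak was 453 bp wide and weak, in a class of strength of which 35.6% was found. Nr0b2 was the 1 gene of these 10 with a gene-end peak in control cells alone, where 2.49% of genes with such a control peak had none in cKO cells. None of the 10 had one in cKO cells alone, where 0.442% of genes with such a cKO peak had none in control cells.

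Genes that proximal tubule cells use, many of them known targets of HNF4A in the mouse, were taken as 16 solute carriers and 14 genes of endocytosis and metabolism. The solute carriers held 39 cKO peaks, 35 of them found in the control library, and 48 control peaks, 36 of them found in the cKO library (75%, 60.4 to 86.4%). The endocytosis and metabolism genes held 42 cKO peaks, 41 of them matched, and 57 control peaks, 41 of them matched (71.9%, 58.5 to 83.0%). The shares of their strength classes were 69.4% for the solute carriers and 68.5% for the other list, both within these intervals. Unmatched control peaks outnumbered unmatched cKO peaks at 5 of 12 solute carrier genes with a control peak and at 7 of 11 genes of the other list, where 43.9% of all such genes did so. The median gene kept 93.3% of its control peaks among solute carriers and 75% in the other list, and 100% among all 16706 protein-coding genes with a control peak. The last value leans on genes with few peaks. Of the 4714 genes with 1 control peak 91.1% kept it, while the median was 71.4% among the 621 genes with 7. Medians of sets with unlike peak numbers are thus not comparable, and the shares of strength classes are the closer background.

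Single genes of these lists differed in direction. Cubn, for the endocytic receptor cubilin, had 7 cKO peaks, all matched, and kept 7 of 12 control peaks. Slc7a7, for an amino acid exchanger, had 6 cKO peaks, all matched, and kept 7 of 10. Slc22a8, for an organic anion transporter, had 3 cKO peaks, all matched, and kept 3 of 6. At Dab2, for an endocytic adaptor, there were 9 cKO peaks, all matched, and 9 of 11 control peaks were kept. At Ass1, for argininosuccinate synthetase, 4 of 5 cKO peaks were matched and 4 of 6 control peaks were kept. Slc4a4, for a sodium bicarbonate cotransporter, went the other way in number, with 17 cKO peaks, 13 of them matched, and 15 control peaks, 13 of them kept.

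**Figure D4:**
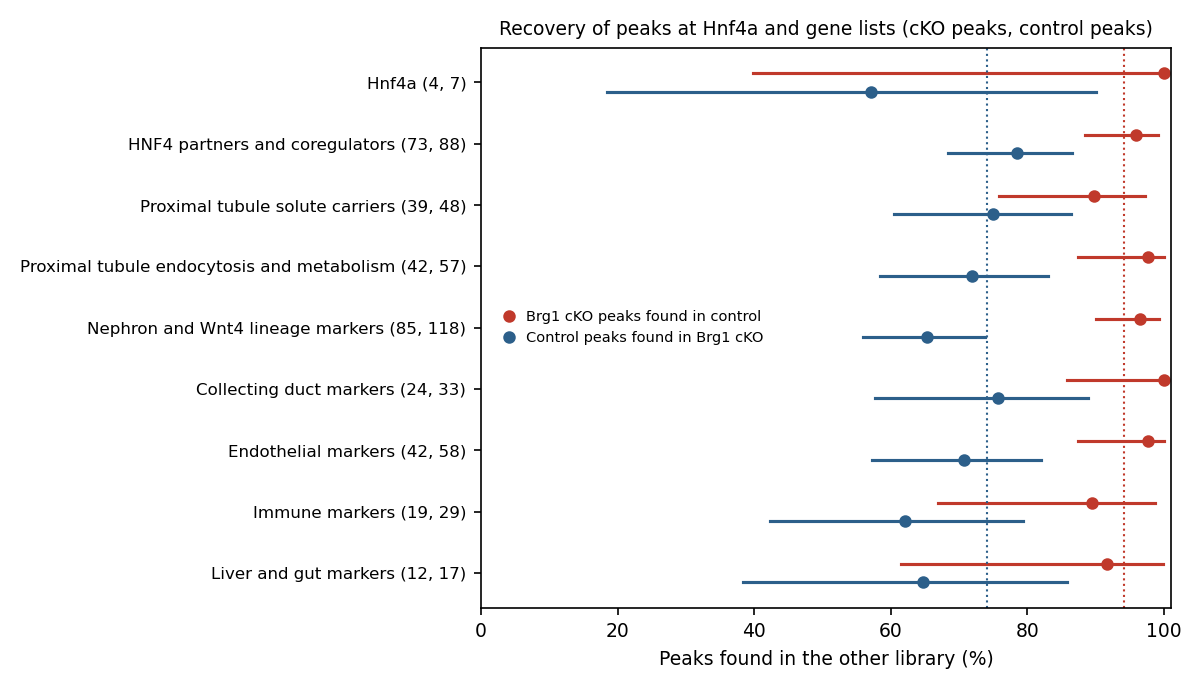
Per cent of peaks found in the other library, with exact 95% intervals, for cKO peaks (upper point) and control peaks (lower point) at Hnf4a and at 8 gene lists, with the number of cKO and control peaks after each name; dotted lines mark the shares over all peaks, 94.1% for cKO and 74.1% for control. The control share of Hnf4a is 57.1% with an interval from 18.4 to 90.1%, wider than that of any list shown.

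Promoter windows of the proximal tubule genes were compared in the same way as those of Hnf4a. Windows were listed for 27 of the 30 genes, and a peak lay on at least 1 window of 9 genes in cKO cells and of 13 genes in control cells. The 9 were all among the 13, and 4 genes had a window under a control peak only, where 1.88% of 11509 protein-coding genes with a window under a control peak had none under a cKO peak. No gene of the lists had a window under a cKO peak only, where 0.353% of genes did. The 4 genes were Cubn, Slc22a8, Slc7a9 and Pck1, the last pair named after their values were seen. At Cubn a control peak of 570 bp (chromosome 2, 13491609 to 13492178) had no cKO counterpart, as had a peak of 439 bp at Slc22a8 (chromosome 19, 8592817 to 8593255) and one of 678 bp at Pck1, for the gluconeogenic enzyme PEPCK (chromosome 2, 173152455 to 173153132). These 3 peaks were weak, at percentiles 13.3, 10.4 and 21.3 of the control list, in classes of which 41.4%, 41.4% and 50.2% were found. At Slc7a9, for an amino acid transporter subunit, the peak was present in both libraries but narrower in cKO cells, with 674 bp (chromosome 7, 35448118 to 35448791), and it ended 51 bp short of the nearer window, which the control peak of 1856 bp (35447406 to 35449261) covered. With the control list cut to the length of the cKO list, 2 of 11 genes had a window under a control peak only, in place of 4 of 13.

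The same windows were searched for a form of the HNF4 site, the letters CAAAGTCCA, on either strand. Neither Hnf4a window held these letters, but HNF4 sites with other letters were not searched. Of all 32851 windows, 0.475% held CAAAGTCCA. Of the 27 proximal tubule genes with a window, 2 held CAAAGTCCA, Slc3a1 and Agxt2, both named after their values were seen. This count is per gene and the 0.475% is per window, so they are not comparable. The window of Slc3a1, for a subunit of the cystine transporter (chr17:85028097-85028396, plus strand, GRCm38.p6), is shown with the match in capitals, since the gene also had a gene-end peak in control cells alone. A match is a description of the letters and shows no binding.
Slc3a1: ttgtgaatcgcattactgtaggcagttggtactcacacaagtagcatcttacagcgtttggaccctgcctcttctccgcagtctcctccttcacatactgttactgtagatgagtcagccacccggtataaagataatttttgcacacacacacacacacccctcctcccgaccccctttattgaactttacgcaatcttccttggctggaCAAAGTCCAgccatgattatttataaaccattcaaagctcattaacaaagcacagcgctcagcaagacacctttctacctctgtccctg
The match begins 39 bases before the start. No peak covered the window in either library. The control peak near it, 326 bp wide (85027271 to 85027596), ended 501 bp before the window, stood at percentile 31.3 and had no cKO counterpart. Slc3a1 had 2 cKO peaks in all, both matched, and kept 2 of 4 control peaks. Agxt2, for a mitochondrial aminotransferase, had no cKO peak and 1 control peak of 269 bp, which was not on its windows.

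Genes whose counts equal those of the members were looked up last. In addition to Hnf4a, 88 protein-coding genes had 7 control peaks, 4 of them found, and 4 cKO peaks. By the summed absolute log2 ratios of bases covered in the 2 libraries, the closest were Cwh43 at 0.21, with 2651 bp in cKO and 4905 bp in control cells, Bfsp2 at 0.32, with 2239 and 4207 bp, and Thbs4 at 0.36, with 2323 and 3952 bp in the same order. For Hnf4g, 3975 other genes had 1 matched peak in each library, and Gm36028, Potegl and Olfr1402 were the closest in width, at 0.01 each.

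The labelled cell type and genotype were checked with the peaks at hand. Of 8 markers of the nephron and the Wnt4 lineage, 6 had a gene-end peak in both libraries. Their peaks differed more between the libraries than their gene ends, with 85 cKO and 118 control peaks and a ratio of bases covered of 0.735, against 0.844 over the whole lists. Of these control peaks 77 were found (65.3%, 55.9 to 73.8%), beside 74.1% over all peaks and 70.1% in their strength classes. The interval takes the peaks as independent, which peaks of the same 8 genes need not be, so it does not set the list apart from all peaks. Wt1, for a transcription factor of nephron progenitors and podocytes, is named because it had the most control peaks and the most unmatched ones of the list. It had 16 cKO peaks, all matched, and 14 of its 30 control peaks had a counterpart. That is 46.7% (28.3 to 65.7%), with 61.6% from their strength classes. Its ratio of bases covered, 0.432, was the lowest of the 8, and the highest was 1.11. Wt1 held 30 of the 118 control peaks, so the pooled values lean on it, and the median gene of the list had a ratio of 0.844. Unmatched control peaks outnumbered unmatched cKO peaks at 5 of the 8 genes, where 43.9% of all genes with a control peak did so. The reverse held at 1 gene, and 2 had equal numbers. The pooled peak count of these 8 markers was thus lower in the cKO library, as was that of Hnf4a and of the whole list. It did not hold gene by gene: 1 marker had 10 cKO and 8 control peaks, and 2 had equal counts. The part of a different mix of lineage cells was not tested. All 5 collecting duct markers and all 5 endothelial markers had gene-end peaks in both libraries too, so that gene-end peaks do not separate these cell types here. Endothelial markers had 42 cKO and 58 control peaks, with a ratio of bases covered of 0.704, and collecting duct markers had 24 and 33, with a ratio of 0.925. Immune markers had 19 cKO and 29 control peaks, with a ratio of 0.755, and gene-end peaks at 0 of 5 in cKO and 3 of 5 in control cells, where 2.49% of genes with a control gene-end peak had none in cKO cells. Of their control peaks 62.1% were found (42.3 to 79.3%), with 65.4% from their strength classes. The same shares were 70.7% and 67.8% for endothelial markers and 75.8% and 72.1% for collecting duct markers. The whole lists hold 0.79 times as many cKO as control peaks. The part of cells outside the lineage in the results above was not tested. Liver and gut markers had 12 cKO and 17 control peaks, with a ratio of 0.777, and gene-end peaks at 2 of 6 in cKO and 3 of 6 in control cells. Of their control peaks 64.7% were found (38.3 to 85.8%), with 74.6% from their strength classes. Smarca4, the gene for Brg1, had 2 cKO and 3 control peaks, which give no check of the deletion, since the labels do not say which part of the gene is removed.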

How the data were processed

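ATAC-seq reads were made into 1 peak list per library by the authors. Per the submitters' processing notes the tools were Genrich, SAMtools and Trim Galore and the build mm10; the aligner, versions, caller settings, duplicate handling and any read shifting were not given in the sources used here. Each deposited narrowPeak list holds a score capped at 1000, a signal (the area under the caller's curve), and -log10 p and -log10 q values (lowest -log10 q 1.35 in the cKO and 1.42 in the control list). The score and signal were not compared; -log10 p ranked peaks within a list. The lists give no read counts, so depth is unknown, and absence of a peak does not show closed chromatin.

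Coordinates are 1-based mm10. Peaks matched when they overlapped by at least 1 bp. RefSeq (GRCm38.p6) gave gene ends, without strand, and promoter windows, with strand. Overlap was tested on a simulated list, and assignment was compared with a direct search on control peaks drawn at random. Python 3.11.15, pandas 2.3.3 and scipy 1.17.1 were used. The members, the gene lists, which hold 75 genes, and the tests were chosen with earlier results of these data known, and the promoter comparison was added after the lists were read. Named genes were the members, the other HNF factors, the next protein-coding genes on each side, genes alike in counts, and from each list the 2 genes with the most control peaks and the 2 with the most unmatched ones; marker lists are given as counts, with Wt1 as an example. Some genes that this rule names are not reported here. Other settings covered overlap, list length, thresholds, distance, gene set and merging.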

Additional observations from a re-analysis of the deposited data

How the results depend on the processing

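Each result on the members was recomputed under 10 other settings, 9 of them planned and 1, every peak within 100 kb whatever its nearest gene, added after the data were seen. The share of Hnf4a control peaks found in the cKO list ran from 42.9% (3 of 7, -log10 q of at least 2) to 66.7% (4 of 6, control list shortened to as many peaks as the cKO list, and 2 of 3, the more significant 50% of each list). All of these lie within the interval of the reported share, 18.4 to 90.1%, which is too wide for this to show stability. The ratio of bases covered at Hnf4a in cKO over control cells ran from 0.496 to 0.740, below 1 throughout, and all Hnf4a cKO peaks were found under each setting. The ratio moved only with the shortened control list, the stricter lists and the added setting. Settings on overlap cannot change it by their construction, and the other planned settings left it at 0.623. The values of Hnf4g were the same under the 9 settings that kept its peaks; in the more significant 50% of each list it had none. The count of proximal tubule genes with a promoter window under a control peak only was 4, 3 and 4 with -log10 q of at least 2, with the more significant 50% and with peaks closer than 500 bp merged, and 2 with the shortened control list, a setting that removes the weakest control peaks by its construction. No paired analysis was possible because each genotype has 1 library. With 7 control peaks at Hnf4a, a share near that of all peaks and one much lower could not be told apart.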
